A study of Mus musculus with 4 samples.

Results

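The Slitrk and Flrt genes encode leucine-rich repeat proteins of the neuronal surface, and their RNA was compared between MP amacrine cells and MP bipolar cells of the mouse retina. The members were all probe sets of the array that the platform annotation assigns to exactly 1 gene of Slitrk1 to Slitrk6 or Flrt1 to Flrt3. These were 15 probe sets of 9 genes, out of 34945 probe sets with exactly 1 gene (18193 genes) and 45101 probe sets in all. Both groups came from papain-dissociated retinas of mixed C57Bl6 x CD1 mice killed at postnatal day 6. The mice were offspring of males with the MP transgene and females without it, and cells of both groups were sorted for expression of the transgene, seen as the fluorescent protein CFP. MP amacrine cells were CFP+ and VC1.1+, where VC1.1 is an antibody that labels amacrine but not bipolar cells. MP bipolar cells were CFP+ and VC1.1-, sorted after VC1.1+ cells had been held back on a magnetic column. There were 2 replicates a group, taken from separate litters, of about 1000 cells each, and each was measured on 1 Affymetrix array. The promoter that drives the transgene and the number of mice behind each replicate are not given in the sources used here.

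Amacrine cells are interneurons of the retina, most of them inhibitory, and bipolar cells are the neurons that pass photoreceptor signals to the inner retina. Both make synapses with each other and with ganglion cells in the inner plexiform layer, which is still developing at postnatal day 6. Slitrk proteins span the membrane, carry leucine-rich repeats outside the cell and act in synapse formation and neurite growth by binding receptor tyrosine phosphatases of the LAR type on the facing membrane. Flrt proteins also carry extracellular leucine-rich repeats. They bind Unc5 receptors, which mediate repulsion, and latrophilins, which are adhesion receptors that also bind teneurins.

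The arrays had median intensities between 44.5 and 47.2, and a gene was tested when its brightest probe set lay above the array median on at least 2 of the 4 arrays. MP amacrine replicate 2 stood apart in the Gapdh control probe sets, whose 3-prime signal exceeded the 5-prime signal by 3.21 on the log2 scale, while the excess on each of the other arrays lay between 1.78 and 2.0. Of the amacrine markers checked, 7 of 7 tested were higher in MP amacrine cells, among them Pax6 (log2 difference 4.56) and the vesicular GABA and glycine transporter Slc32a1 (3.33). The summed intensity of all 8 listed amacrine markers was 5909 to 5973 in MP amacrine and 348 to 373 in MP bipolar samples. Of the bipolar markers, 4 of 5 tested were higher in MP bipolar cells, among them Otx2 (-1.25) and Cabp5 (-4.91). The other one, Isl1, lay in the opposite direction and was not called, with 1055 and 925 on the MP amacrine arrays against 574.5 and 684 (0.64, adjusted p = 0.0835, limma). The ON bipolar channel gene Trpm1 was too dim to test, with intensities of 22.4 to 26.7 on all 4 arrays, as was the GABA-synthesising enzyme Gad1, at 8.58 to 61.7. Of the 8 listed bipolar markers, 2 were not analysed here. The other lists were for rods, cones, Müller glia, horizontal cells, ganglion cells, and endothelium with microglia. They had 3 of their 16 tested members called, namely Gnat2 and Slc1a3 in the amacrine and Thy1 in the bipolar direction. A lack of calls does not show absence from both groups. Summed rod markers read 6272 and 4166 on the MP amacrine arrays and 3737 and 4601 on the MP bipolar arrays. Over all 4 arrays the sums were 1907 to 2462 for Müller glia, 1679 to 3540 for ganglion cells and 889 to 1042 for cones. They were 236 to 807 for horizontal cells and 53.8 to 193 for endothelium with microglia. The source of these signals was not tested.

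Among the Slitrk genes, Slitrk6, Slitrk1 and Slitrk5 were higher in MP bipolar cells, and Slitrk2 was higher in MP amacrine cells. Slitrk4 did not pass the test and Slitrk3 was too dim to be tested. None of the 3 Flrt genes passed. In all, 4 of the 8 tested members were called at an adjusted p under 0.05 (limma, Benjamini-Hochberg over 11583 tested genes), 1 higher in MP amacrine and 3 higher in MP bipolar cells. Of all tested genes, 13.5% were called, 6.54% as higher in MP amacrine and 6.92% as higher in MP bipolar cells. The share of all tested genes rests in part on single choices, since the number of calls was 1559 as tested, 917 without MP bipolar replicate 2 and 785 without the filter on dim probe sets. The number of members called was 4 with each array left out in turn and 3 without the filter. The median log2 difference of the 8 tested members was -0.52, and that of all tested genes was -0.03. The median size of the difference, without its sign, was 1.11 for the members and 0.26 for all tested genes. Slitrk6 and Flrt2 lay above the array median on the 2 arrays of one group only, so they had to differ in order to be tested, and the counts and medians over the tested members are descriptions. In sorted cells, fewer cells that express a gene and less RNA per cell cannot be told apart.

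**Figure D1:**
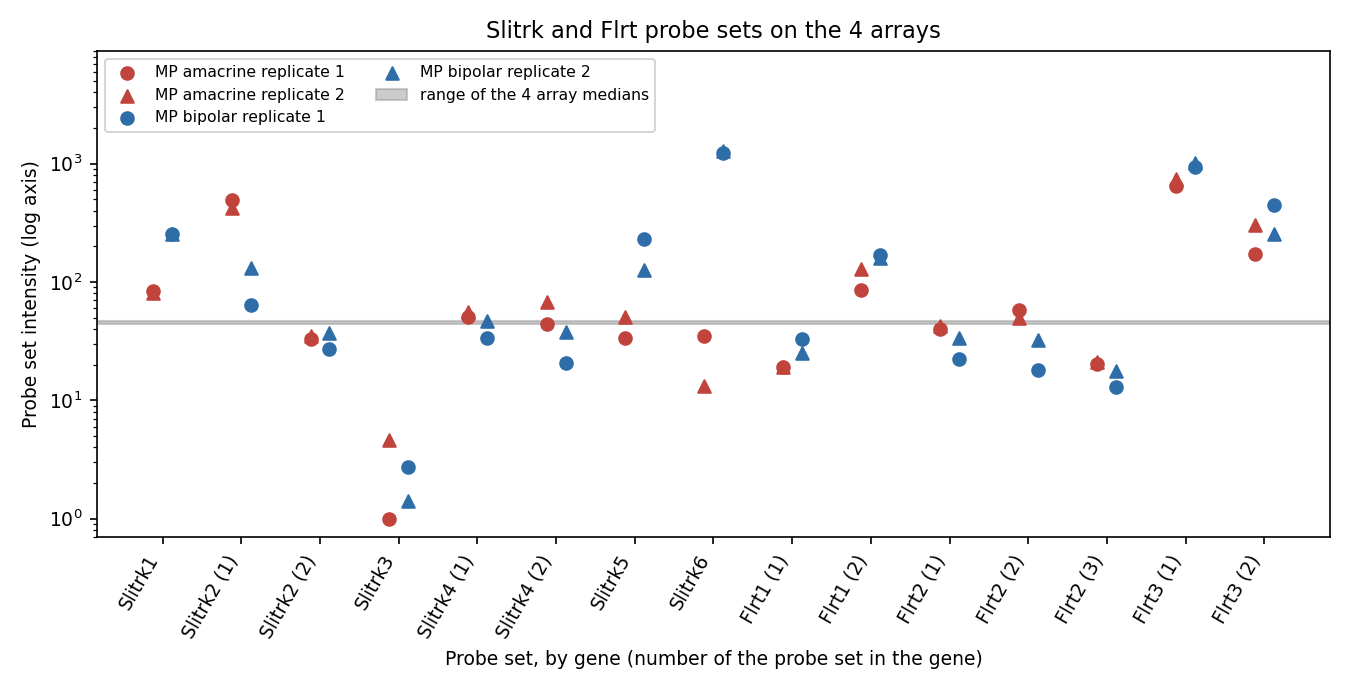
Intensity (log axis, arbitrary array units) of each of the 15 Slitrk and Flrt probe sets on each array; red marks are the 2 MP amacrine arrays, blue marks the 2 MP bipolar arrays, and the grey band spans the 4 array medians. The Slitrk6 points of the bipolar arrays (1235 and 1271) lie far above those of the amacrine arrays (34.7 and 13.3), the first Slitrk2 probe set shows the opposite order, and the Slitrk3 points lie near the bottom of the axis.

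**Figure D2:**
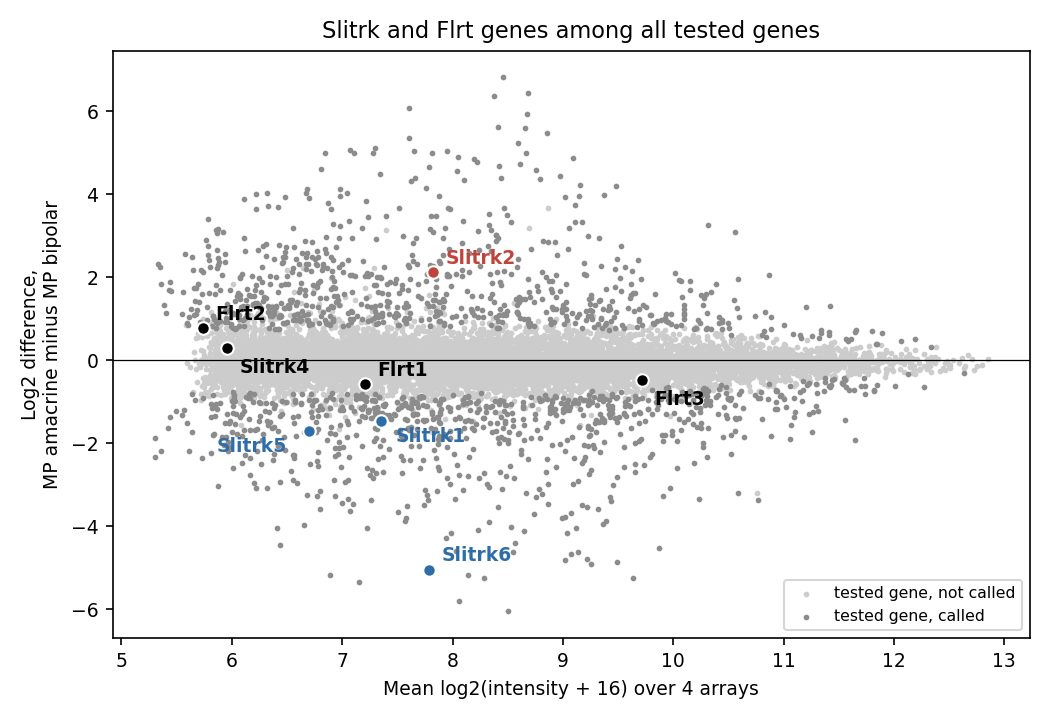
Log2 difference, MP amacrine minus MP bipolar (vertical), against the mean log2(intensity + 16) over 4 arrays (horizontal) for all 11583 tested genes; dark grey dots are called genes, and the 8 tested Slitrk and Flrt genes are named, in red where higher in MP amacrine, blue where higher in MP bipolar and black where not called. Slitrk6 (-5.04) lies near the lower edge of the cloud, and the 3 Flrt genes and Slitrk4 lie within or at the border of the genes that were not called.

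Slitrk6, Slitrk1 and Slitrk5 are neighbours on chromosome 14. In the order of protein-coding genes in the RefSeq annotation of GRCm38.p6, 0 genes lie between Slitrk1 and Slitrk6 and 0 between Slitrk6 and Slitrk5. Because these neighbours were all higher in the same cells, the window from 250 bases before to 50 bases after each gene's start is given here from RefSeq (GRCm38.p6), in the direction of the gene. Capitals mark every match to CANNTG, the E-box bound by basic helix-loop-helix factors, searched on both strands; the letters read the same way on both.
Slitrk6 start, chr14:110755100-110755399, - strand: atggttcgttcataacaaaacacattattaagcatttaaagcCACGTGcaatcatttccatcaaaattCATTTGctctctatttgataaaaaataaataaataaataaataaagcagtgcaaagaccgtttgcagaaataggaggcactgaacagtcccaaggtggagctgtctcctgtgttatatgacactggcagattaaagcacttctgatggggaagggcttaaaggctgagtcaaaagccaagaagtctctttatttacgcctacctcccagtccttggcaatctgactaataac
Slitrk1 start, chr14:108914190-108914489, - strand: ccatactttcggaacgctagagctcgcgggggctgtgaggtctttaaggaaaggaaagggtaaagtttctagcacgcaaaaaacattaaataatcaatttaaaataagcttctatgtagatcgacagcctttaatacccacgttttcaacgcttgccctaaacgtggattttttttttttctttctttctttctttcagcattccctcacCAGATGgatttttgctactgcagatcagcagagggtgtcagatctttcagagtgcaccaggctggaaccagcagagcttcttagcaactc
Slitrk5 start, chr14:111675777-111676076, + strand: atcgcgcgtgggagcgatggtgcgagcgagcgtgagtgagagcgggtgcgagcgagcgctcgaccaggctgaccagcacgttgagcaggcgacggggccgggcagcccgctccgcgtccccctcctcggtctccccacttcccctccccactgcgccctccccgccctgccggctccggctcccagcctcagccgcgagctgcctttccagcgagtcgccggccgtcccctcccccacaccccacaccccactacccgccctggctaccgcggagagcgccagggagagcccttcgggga
The windows differ in base composition. That of Slitrk6 was 38.3% G or C and that of Slitrk1 42.3%, and 7.45% and 14.9% of the 32851 windows in the RefSeq table had a lower share. The Slitrk5 window was 74.3% G or C, above 95.6% of all windows, and held 35 CpG pairs, against 4 for Slitrk6 and 9 for Slitrk1. Matches to CANNTG numbered 2 in the Slitrk6 window, 1 in that of Slitrk1 and 0 in that of Slitrk5, while 72.3% of all windows held at least 1. The homeodomain letters TAATTA, searched on both strands, had 0 matches in the 3 windows, and 5.29% of all windows held them. The letters GGATTA, bound by Otx factors, also had 0 matches there on either strand, against 7.06% of all windows with a match. The same was true of the TATA box letters TATAAA, which 13.6% of all windows held. RefSeq windows were matched for 7 of the 9 members.

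Slitrk6 had the largest difference of all members. Slitrk6 is a family member known from inner ear innervation and from eye growth, since mutations that disrupt it cause deafness with myopia. Its single probe set, 1437231_at, gave intensities of 34.7 and 13.3 on the MP amacrine arrays and 1235 and 1271 on the MP bipolar arrays. Both amacrine values lay below the median of their array, and both bipolar values far above it. The log2 difference was -5.04 (SE 0.29, 95% interval -5.71 to -4.37, adjusted p = 3.03e-05, limma) on the log2(intensity + 16) scale. The deposited values carry no detection calls, and the amacrine signal is not shown to lie above background. With the amacrine level set at the median of each array, Slitrk6 was 20.5-fold higher in MP bipolar cells on the same scale. That is a point value without an interval, and the median is a substitute, not a measured detection limit. Without MP amacrine replicate 2, the array with the steep Gapdh gradient, the log2 difference was -4.65. A difference as large as -5.04 in either direction was seen in 0.173% of all tested genes. Slitrk6 was tested through the MP bipolar arrays alone, so this share is a description too.

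Slitrk6 read higher on MP amacrine array 1 than on array 2, and the 6 measured bipolar markers were divided between these arrays. Cabp5, Vsx1 and Isl1 were higher on array 1, and Otx2, Grik1 and Trpm1 on array 2. Grik1 (24.2 and 30.0) and Trpm1 (22.4 and 26.7) lay below the medians of these arrays, 44.5 and 47.2. Isl1 did not read higher in MP bipolar cells. Array 2 was also the one with the steep Gapdh gradient. The division is thus a description. Cabp5, a calcium-binding protein of bipolar cells, had intensities of 259 and 29.4 on MP amacrine arrays 1 and 2, against 3251 and 3428 in MP bipolar cells. Vsx1, a homeodomain factor of cone bipolar cells, had 154 and 67.7, against 1133 and 898. The 6 bipolar markers together summed to 3037 and 2725 in MP amacrine and to 8936.5 and 9039 in MP bipolar samples, with Otx2, at 1523 and 1646, and Isl1, at 1055 and 925, making up most of the amacrine sums. The part of these cells or transcripts in the amacrine Slitrk6 values was not tested.

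Slitrk1, known for a role in excitatory synapses and for its study in Tourette syndrome, differed less and more evenly. Its single probe set, 1428089_at, had intensities of 84.1 and 81.5 on the MP amacrine arrays and 257 and 252 on the MP bipolar arrays. Replicates within a group were close, at 82.8 ± 1.84 and 254.6 ± 3.22 (SD, n = 2 per group), and the groups did not overlap. The same held for 6173 of all 11583 tested genes. The log2 difference of Slitrk1 was -1.45 (SE 0.21, adjusted p = 0.00251, limma). Unlike Slitrk6, Slitrk1 lay above the array median in both cell groups.

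Slitrk5, which is reported to associate with the neurotrophin receptor TrkB, was also higher in MP bipolar cells, with more spread. Its single probe set, 1429718_at, had intensities of 33.7 and 50.3 on the MP amacrine arrays and 232 and 126 on the MP bipolar arrays. The bipolar arrays differed from each other by more than the amacrine arrays, but the lower bipolar value was still above the higher amacrine value. The difference on the log2 scale was -1.71 (SE 0.30, adjusted p = 0.00754, limma). Over the alternatives the adjusted p of Slitrk5 ran from 6e-05 to 0.0841 (limma), the latter without the filter on dim probe sets, where the call was lost. Slitrk5 was not tested when the filter was raised to the 75th percentile of each array.

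**Figure D3:**
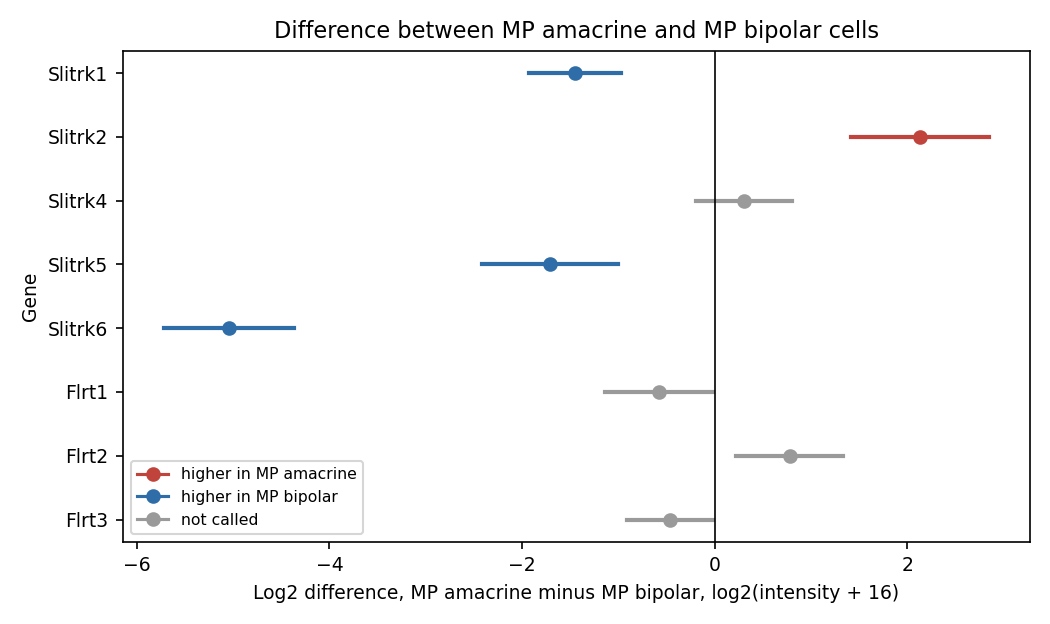
Log2 difference, MP amacrine minus MP bipolar, on the log2(intensity + 16) scale for the 8 tested members, with 95% intervals from limma as bars; red and blue mark called genes, higher in MP amacrine and in MP bipolar cells respectively, and grey those not called. The blue intervals of Slitrk1, Slitrk5 and Slitrk6 lie wholly below 0, and that of Slitrk6 (-5.71 to -4.37) overlaps with none of the others.

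Slitrk2 and Slitrk4 lie near each other on chromosome X, with 2 protein-coding genes between them in the same annotation. Slitrk2, a postsynaptic organiser of excitatory synapses, went against the chromosome 14 genes. Its brighter probe set, 1441127_at, had intensities of 498 and 422 on the MP amacrine arrays and 64.6 and 131 on the MP bipolar arrays. Both amacrine values lay well above both bipolar values, and the bipolar arrays differed more from each other than the amacrine arrays did. The log2 difference was 2.13 (SE 0.31, 95% interval 1.41 to 2.84, adjusted p = 0.00288, limma). A further Slitrk2 probe set, 1441483_at, was below the median on all 4 arrays, with 33.3 and 34.9 against 27.2 and 37.2, so it showed no order between the groups. With the mean of both probe sets standing for the gene the difference was 1.09 and still called (adjusted p = 0.0234, limma; 4.31e-06 to 0.0484 over all alternatives).

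The RefSeq table gives Slitrk2 a pair of starts, whose windows are shown because Slitrk2 is the member that was higher in MP amacrine cells; capitals mark CANNTG as above.
Slitrk2 upstream start, chrX:66649068-66649367, + strand: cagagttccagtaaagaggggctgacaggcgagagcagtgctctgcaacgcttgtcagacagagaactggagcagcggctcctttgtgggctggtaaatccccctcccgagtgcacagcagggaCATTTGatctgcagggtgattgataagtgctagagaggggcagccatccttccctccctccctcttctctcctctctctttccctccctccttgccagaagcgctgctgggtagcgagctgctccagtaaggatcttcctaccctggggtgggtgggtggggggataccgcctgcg
Slitrk2 downstream start, chrX:66652909-66653208, + strand: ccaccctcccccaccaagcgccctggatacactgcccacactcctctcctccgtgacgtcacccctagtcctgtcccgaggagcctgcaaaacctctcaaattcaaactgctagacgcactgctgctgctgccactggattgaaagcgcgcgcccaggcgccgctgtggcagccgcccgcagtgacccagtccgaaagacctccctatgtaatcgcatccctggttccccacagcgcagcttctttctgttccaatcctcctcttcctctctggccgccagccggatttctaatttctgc
The upstream window was 59.3% G or C with 8 CpG pairs and 1 match to CANNTG. The downstream window was 60.3% G or C with 17 CpG pairs and 0 matches. The homeodomain, Otx and TATA box letters had 0 matches in either. Which start the cells used cannot be read from these arrays.

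Slitrk4 was dim in both groups. Its brighter probe set, 1437744_at, had 50.3 and 55.9 on the MP amacrine arrays and 33.7 and 47.0 on the MP bipolar arrays, close to the array medians. On the log2 scale the difference was 0.30 (SE 0.22, 95% interval -0.20 to 0.80, adjusted p = 0.464, limma). The dimmer probe set, 1440516_at, was above the median on 1 array only, with 44.1 and 67.8 against 20.8 and 37.9. The interval leaves room for a difference in either direction.

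Slitrk3, known as an organiser of inhibitory synapses through the phosphatase encoded by Ptprd, was too dim to be tested. Its single probe set, 1439250_at, had intensities of 1 and 4.65 on the MP amacrine arrays and 2.71 and 1.41 on the MP bipolar arrays. These values lie at the bottom of the range of the array, where 3.06% to 3.62% of all probe sets have a value of 1 or less, and they overlap between the groups. With 1 probe set and no detection calls, the array cannot separate a low level from none.

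None of the Flrt genes was called after adjustment, although 3 of 3 had an unadjusted p under 0.05 (limma). So did 2857 of all 11583 tested genes. Flrt3 is a ligand of Unc5 receptors and latrophilins. Its brighter probe set, 1429310_at, had intensities of 652 and 747 on the MP amacrine arrays and 933 and 1009 on the MP bipolar arrays. Both bipolar values lay above both amacrine values, but the log2 difference of -0.47 (SE 0.19, 95% interval -0.92 to -0.02) did not pass after adjustment (adjusted p = 0.185, limma). Its other probe set, 1453102_at, had 172 and 303 against 447 and 257, so the groups overlapped there. It gave a log2 difference of -0.54 (SE 0.36, adjusted p = 0.469 over all tested probe sets, limma).

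Flrt1 had the same sign as Flrt3. Its brighter probe set, 1460041_at, had 85.3 and 128 on the MP amacrine arrays and 169 and 160 on the MP bipolar arrays. The log2 difference was -0.58 (SE 0.24, 95% interval -1.14 to -0.02, adjusted p = 0.185, limma). Its other probe set, 1443143_at, was below the median on all 4 arrays, with 19.3 and 19.0 against 32.7 and 25.1. Both probe sets of Flrt1 were thus higher on both bipolar arrays, 1460041_at above and 1443143_at below the array medians. Groups did not overlap in 6173 of all 11583 tested genes.

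Flrt2, a ligand of Unc5d, had the opposite sign. Its brightest probe set, 1455096_at, had 57.6 and 50.1 on the MP amacrine arrays and 18.1 and 32.6 on the MP bipolar arrays. This was a log2 difference of 0.78 (SE 0.24, 95% interval 0.23 to 1.33), which did not pass (adjusted p = 0.0754, limma). The other probe sets, 1438702_at with 40.2 and 42.5 against 22.2 and 33.8 and 1456874_at with 20.2 and 21.0 against 13.0 and 17.6, lay below the median on all 4 arrays. All 3 probe sets of Flrt2 had both amacrine values above both bipolar values, all of them near or under the array medians. They were read on the same 4 samples, and groups did not overlap in 6173 of all 11583 tested genes.

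Every probe set was also tested singly. Of the 15 member probe sets, 9 passed the filter on dim values, and 4 of these were called, 1 higher in MP amacrine and 3 higher in MP bipolar cells. Of all tested probe sets, 10.2% were called, 5.04% and 5.19% in these directions. The 4 were the probe sets already described for Slitrk2, Slitrk1, Slitrk5 and Slitrk6. For the 5 members with more than 1 probe set, all probe sets of a gene had the same sign. Among the further probe sets only that of Flrt3 was bright enough to be tested. That of Slitrk2 had a difference of only 0.06, with groups that overlapped. The share of all genes with such agreement was not computed.

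**Figure D4:**
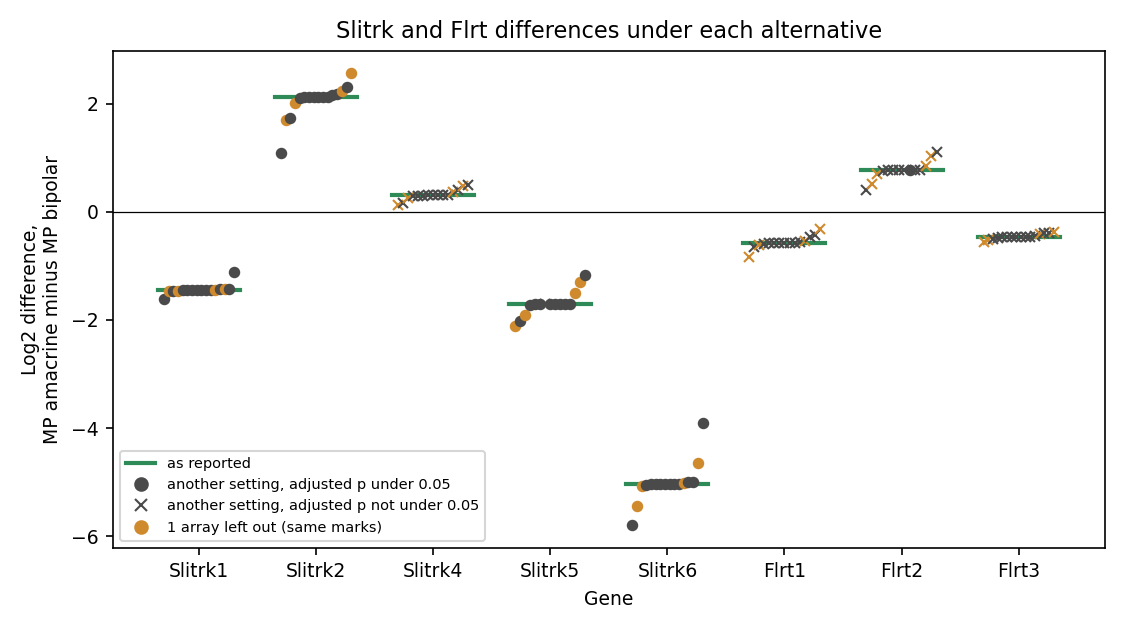
Log2 difference, MP amacrine minus MP bipolar, of the 8 tested members as reported (green line) and under each alternative (marks), orange where 1 array was left out; dots are called at an adjusted p under 0.05 and crosses are not. No mark crosses 0 for any member, and Slitrk6 spans -5.80 to -3.91 and Slitrk2 spans 1.09 to 2.56.

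The genes whose profile over the 4 arrays was most like that of Slitrk6 were sought by the Euclidean distance between log2 values, each gene centred on its own mean. Nearest was the protocadherin Pcdh17 (distance 0.23), with 164 and 76.9 on the MP amacrine arrays and 4748 and 5010 on the MP bipolar arrays. The neurokinin receptor Tacr3 (distance 0.27) followed with 145 and 94.5 against 3638 and 4083. The transcription factor Fezf2 (distance 0.28) had 38.9 and 24.1 against 1605 and 1760. For Slitrk2 the nearest were the potassium channel gene Kcnd2 (distance 0.11), with 293 and 227 on the MP amacrine arrays against 33.3 and 72.4, the zinc finger gene Insm2 (distance 0.15) with 335 and 249 against 38.6 and 84.4, and the glycosyltransferase gene Galnt15 (distance 0.25) with 97.0 and 94.9 against 4.22 and 14.3. These genes were chosen for their likeness over the same 4 arrays of 2 groups, so the shared pattern is a description.

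A list of known or reported partners of both families, called binding partners here, was compared in the same fit. It also held the teneurins, which were listed for binding latrophilins and not as direct partners of Slitrk or Flrt proteins. Teneurins made up 3 of the 16 tested genes and 2 of the 6 called. The list held 19 genes with 61 probe sets, of which 16 genes were bright enough to be tested. In all, 6 were called, 2 higher in MP amacrine and 4 higher in MP bipolar cells, beside the 13.5% of all tested genes named above. The 4 include Ntrk2 on its brightest probe set, although its probe sets were called in both directions. The median log2 difference of the 16 was 0.06, and the median size of the difference was 0.60. For all tested genes these were -0.03 and 0.26. Unc5b was tested through the MP bipolar arrays alone, so these are descriptions too. The number called lay between 4 and 8 with each array left out in turn, and was 3 when the mean of all probe sets stood for a gene.

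Among the LAR-type phosphatases, a class that holds presynaptic receptors of Slitrk proteins, the members differed in direction. Ptprd was higher in MP bipolar cells, with 1766 and 1858 on the MP amacrine arrays and 4802 and 5109 on the MP bipolar arrays (log2 difference -1.44, SE 0.11, adjusted p = 1.18e-04, limma). Of its 5 tested probe sets, 3 were called, all higher in MP bipolar cells. Ptprf was higher in MP amacrine cells, with 1297 and 1255 against 719 and 484 (log2 difference 1.09, SE 0.23, adjusted p = 0.0171, limma). That call was lost when MP amacrine replicate 2 was left out (adjusted p = 0.0505), when MP bipolar replicate 2 was left out (adjusted p = 0.114), without the filter (adjusted p = 0.0862) and with the mean of all probe sets (adjusted p = 0.0666), and over all alternatives the adjusted p ran from 0.00196 to 0.114 (limma). Ptprs, with 3678 and 3078 against 3905 and 3959, had a log2 difference of -0.22 (95% interval -0.49 to 0.05, adjusted p = 0.294, limma). Without MP amacrine replicate 1 Ptprs was called (-0.35, adjusted p = 0.0407, limma), with 0.0407 to 0.814 over all alternatives. A Ptprs probe set, 1436855_at, read 1149 on MP amacrine replicate 2 and 127 to 193 on the other arrays.

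Ntrk2, which encodes TrkB, gave opposite answers by probe set. Its brightest, 1420838_at, had 304 and 172 on the MP amacrine arrays and 1081 and 1670 on the MP bipolar arrays, a log2 difference of -2.47 (SE 0.32, adjusted p = 0.00167, limma). Another of its 8 probe sets, 1458622_at, had 237 and 177 against 35.5 and 84.9, a log2 difference of 1.62 that was called in the amacrine direction when probe sets were tested singly (adjusted p = 0.0311, limma). With the mean of all 8 probe sets the difference was -0.15 (adjusted p = 0.682, limma; 6.1e-07 to 0.682 over all alternatives). The gene is known to give full-length and truncated receptor transcripts, and the direction for Ntrk2 as a gene was not settled.

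Among Unc5 receptors, which bind Flrt proteins, Unc5d was higher in MP bipolar cells. It had 741 and 708 on the MP amacrine arrays and 1694 and 1909 on the MP bipolar arrays (log2 difference -1.29, SE 0.17, adjusted p = 0.00190, limma). The groups did not overlap, as in 6173 of all 11583 tested genes. Unc5b, with 40.5 and 27.5 against 60.4 and 45.6, did not pass (-0.47, adjusted p = 0.27, limma). Unc5a, at 1.35 to 15.9, and Unc5c, at 32.6 to 68.5 on its brighter probe set, were too dim to be tested.

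None of the 3 latrophilins was called by limma, and 1 of them, Adgrl2, had an unadjusted p under 0.05. Of all 11583 tested genes, 2857 had such a p (limma). Adgrl1 had 1844 and 1784 on the MP amacrine arrays and 1525 and 1557 on the MP bipolar arrays, and its log2 difference of 0.23 had a 95% interval of -0.10 to 0.57 (adjusted p = 0.384, limma). Adgrl2 had 362 and 459 against 236 and 243 (0.73, SE 0.23, adjusted p = 0.0816, limma). It was called without MP amacrine replicate 1 (0.89, adjusted p = 0.0493, limma), and the adjusted p ran from 0.0493 to 0.341 over all alternatives. Adgrl3 overlapped between the groups, with 509 and 701 against 508 and 602 (0.11, adjusted p = 0.852, limma), and its sign changed with the choice of probe set and of arrays.

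The teneurins, which bind latrophilins across the synapse, differed by member. Tenm3, known for matching synaptic partners in visual circuits, was higher in MP bipolar cells, with 639 and 705 on the MP amacrine arrays and 1651 and 1991 on the MP bipolar arrays (log2 difference -1.41, SE 0.19, adjusted p = 0.00173, limma). Its other probe set had the same sign (-1.49, adjusted p = 0.0857 over all tested probe sets, limma). Tenm2 was higher in MP amacrine cells by a small amount, with 3650 and 3574 against 2706 and 2334 (0.52, SE 0.12, adjusted p = 0.0246, limma). The Tenm2 call was lost in 6 of 15 alternatives, among them the omission of MP bipolar replicate 1 (adjusted p = 0.0535) or of MP bipolar replicate 2 (adjusted p = 0.224), with 0.0145 to 0.274 over all alternatives (limma). Tenm1 did not pass, with 353 and 259 against 441 and 558 (-0.69, adjusted p = 0.131, limma). Tenm4 was too dim, at 28.7 to 33.97 on its brightest probe set.

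The FGF receptors, reported to associate with Flrt proteins, had 0 of 3 members called. At an unadjusted p under 0.05 there were also 0 of 3, beside 2857 of all 11583 tested genes (limma). Fgfr1 (0.24, 95% interval -0.23 to 0.70), Fgfr2 (0.09, -0.39 to 0.57) and Fgfr3 (0.04, -0.43 to 0.51) had adjusted p values of 0.551 to 0.943 (limma). Robo1, a Slit receptor reported to interact with Flrt3, had 90.7 and 98.6 on the MP amacrine arrays and 57.6 and 24.96 on the MP bipolar arrays (1.01, SE 0.29, adjusted p = 0.061, limma). It was called without MP bipolar replicate 1 (adjusted p = 0.0155, limma; 0.00849 to 0.711 over all alternatives), while another of its probe sets, 1457407_at, gave -0.16.

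**Figure D5:**
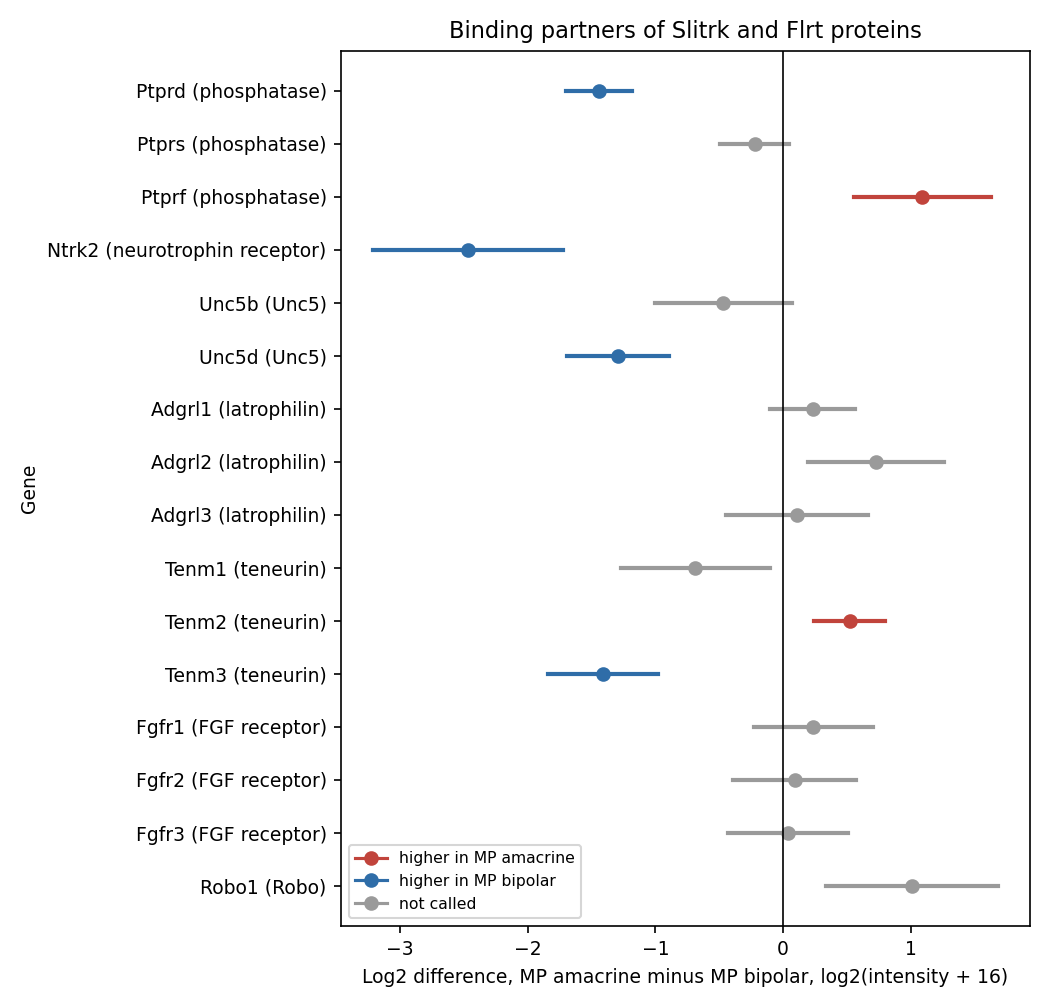
Log2 difference, MP amacrine minus MP bipolar, on the log2(intensity + 16) scale for the 16 tested binding partners, each on its brightest probe set, with the class of protein in brackets and 95% intervals from limma as bars; red and blue mark called genes, higher in MP amacrine and in MP bipolar cells respectively, and grey those not called. Ptprd (-1.44), Ntrk2 (-2.47), Unc5d (-1.29) and Tenm3 (-1.41) lie to the left, Ptprf (1.09) and Tenm2 (0.52) to the right, and the FGF receptors near 0. The teneurins were listed for binding latrophilins, and Ntrk2 had probe sets called in both directions.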

How the data were processed

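Per the labels' protocols, RNA (PicoPure kit) went through 2 amplification rounds that added a biotin label. The authors deposited 1 linear intensity per probe set and array. Their background correction and scaling are unstated in the sources used here, and the table carries no detection calls. Array quartiles differed by at most 0.0847 on the log2 scale, so no further scaling was applied before taking log2(intensity + 16), which understates differences of dim genes. Between 27.8% and 28.7% of probe sets on an array lay below 16. The 64 control probe sets, 932 with several genes and 9160 without a gene were left out. Gene symbols of the platform annotation were looked up in a RefSeq table, which held 18033 of 18195 identifiers and changed 0 symbols.

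Each sample was grouped by its title. The brightest probe set, by mean log2 value, represented its gene. Groups were compared by limma 3.58.1 in R 4.3.3 (lmFit, eBayes with intensity trend), two-sided, with 2 residual degrees of freedom and Benjamini-Hochberg adjustment over the tested genes, or tested probe sets where stated; the threshold was 0.05. Precision is limited by the small number of arrays. The fit was also run on simulated data. Their noise was drawn independently for each gene and array, so that run cannot give the error rate on these arrays. The text names all 9 members, all 19 binding partners, and the 3 genes nearest in profile to the called member with the largest difference each way. The other marker genes and the single probe sets of partners were picked with their values in view, that is, chosen after seeing them. The members, lists and tests were chosen with earlier results of these data known. The alternatives, 16 in all, covered scaling, filter, offset, choice of probe set, variance moderation, the replicate number as a block, and each array left out.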

Additional observations from a re-analysis of the deposited data

How the results depend on the processing

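The number of genes called was 1559, against 785 without the filter on dim probe sets and 917 to 1939 with each array left out in turn. The number of members called was 4 in each of the latter, and the number of binding partners 4 to 8, and 3 with the mean of all probe sets. All 8 tested members kept their sign in every alternative run. Slitrk1, Slitrk2 and Slitrk6 stayed called in all 16, and Slitrk5 in 14 of the 15 that tested it. With the replicate number as a block, 1932 genes, 5 members and 7 partners were called. Flrt2 (adjusted p = 0.0374, limma) and Robo1 (adjusted p = 0.00849, limma) were called in addition. Flrt2 was not called under any of its other alternatives. The difference between MP amacrine 1 and 2 did not follow that between MP bipolar 1 and 2. Its r was -0.0686 across 45037 probe sets, which are not independent. That correlation cannot show whether same-numbered samples were prepared together. Signs turned for partners that were not called. Robo1 was -0.20 with an offset of 1, where another probe set was the brightest, and Fgfr2 was -0.074 without probe sets of the _x_ and _s_ classes, for the same reason. With the mean of all probe sets Ptprs was 0.13 and Adgrl3 -0.032. With each array left out Adgrl3 ranged from -0.12 to 0.33 and Fgfr3 from -0.030 to 0.11. A group reduced to 1 array was given the spread of the other group. Slitrk3 was too dim to be tested, and Slitrk4, Slitrk5, Flrt1 and Flrt2 were not tested with the filter at the 75th percentile.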
